A study of Homo sapiens with 13 samples.

Results

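FGF2 was given to human neurons for 6 days after the drug that drives their induction had been withdrawn, and gene expression was measured on day 12. The comparison holds 4 of the 13 libraries of the study, taken by their labels: 2 from cultures with late FGF2 and 2 from control cultures harvested on the same day. The cells derive from H9, an established human embryonic stem cell line, and stably carry a NEUROG2 gene that doxycycline switches on. NEUROG2 is a proneural transcription factor, and its forced expression turns stem cells into excitatory neurons that no longer divide. All 4 cultures grew on matrigel, at first for 2 days in E8, a medium for stem cells, then for 4 days in 3N, a neural medium, with doxycycline at 1 µg/ml throughout, and stayed in 3N without doxycycline for the final 6 days. The treated cultures had FGF2, labelled as 20 µg/ml, in those final 6 days, and the controls had none. That concentration is high for a culture medium, and whether its unit is right could not be checked here. Of the label fields, 1 gives this period as days 6 to 12 and another as days 7 to 12. The descriptions of both controls speak of 6 days of growth, but their titles and listed periods give 12. A further 4 libraries of the same sequencing run entered the fit, where they help estimate the spread and give the early effect: 2 controls and 2 cultures with early FGF2 at the same labelled dose, all harvested on day 6 after 6 days of doxycycline. Each library came from the RNA of 1 culture well. Titles call the replicates hES-N2G1 and hES-N2G2 and source names say hES-N1, and whether they are separate cultures, clones or lines is not stated, so p-values measure only the spread between these samples.

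FGF2 is a secreted growth factor that binds receptor tyrosine kinases of the FGFR family together with heparan sulfate chains on the cell surface. The receptor recruits adaptors that switch on RAS and then the kinases RAF, MEK and ERK, and active ERK raises transcription of early response factors, of ETS factors of the PEA3 group, and of proteins that damp the pathway again: Sprouty and SPRED proteins and the phosphatases that strip phosphate from ERK. In the developing nervous system FGF signalling is known for its part in regional patterning, where it opposes retinoic acid, and for effects on survival and axon growth.

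Totals were 22802501 to 30014661 counted reads per library. Levels are counts per 1000000 reads (CPM) after scaling by TMM, and log2 changes are those of late FGF2 over control from edgeR's quasi-likelihood fit, with a gene called at an adjusted p under 0.05. In that fit 437 of 20142 genes tested were called (2.17%), 329 higher (1.63%) and 108 lower (0.536%). The fall or rise was at least 2-fold for 25 of the lower and 119 of the higher genes, and the median log2 change of all genes was 0.0000. Rises and falls are against the day-12 controls, and some genes that rose, PAX5 and RGS16 among them, had stood higher on day 6. The 2 day-6 FGF2 libraries stood apart: against counting error alone, a chi-square over its degrees of freedom was 21.2 between them and 3.02 to 3.46 within the other 3 groups, and this widens the shared estimate of the spread. Without both of them 732 of 19702 genes were called higher (3.72%) and 431 lower (2.19%), and 436 of the 437 genes were called the same way. With each day-12 library left out in turn, 152 to 184 genes were called higher and 23 to 36 lower. The calls of 140 genes, 124 higher and 16 lower, held in all 17 other settings, and where a gene named below lost its call without 1 library, that is said beside it. Counts of list members below stand against shares over all genes tested of 1.63% higher and 0.536% lower. Without both day-6 FGF2 libraries those shares were 3.72% and 2.19%. Where groups are said not to overlap, this only describes levels and adds nothing to a call. How many of all genes tested did so was not counted.

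Among the marker lists, that of pan-neuronal genes had the largest sum of levels. Such sums depend on which genes were listed and do not measure shares of cells. The 28 pan-neuronal genes summed to 38058 and 38112 CPM in the controls and 40957 and 41923 CPM with FGF2. The 38 cell cycle genes summed to 389 to 399 CPM in all 4 libraries, and 0 of them were called, where 2.17% of all genes tested were. Endothelial and blood markers summed to 4.81 to 5.80 CPM and epithelial markers to 63.4 to 68.9 CPM, with 12 of 13 and 12 of 15 under 1 CPM. Mesenchyme markers summed to 370 to 419 CPM and neural crest and Schwann markers to 287 to 323 CPM, with ranges that overlapped between the groups. Neural progenitor markers were at 1181 and 1247 CPM in the controls and 1362 and 1460 CPM with FGF2, while astroglia and oligodendroglia markers were at 282 and 275 against 230 and 233 CPM, although the 1 member called, OLIG2, was higher (log2 change 0.65 ± 0.14 SE, adjusted p = 0.0155, lost without control or FGF2 replicate 2). The part of these other cells in the results was not tested, and in bulk RNA fewer cells of a type cannot be told apart from less RNA per cell.

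**Figure D1:**
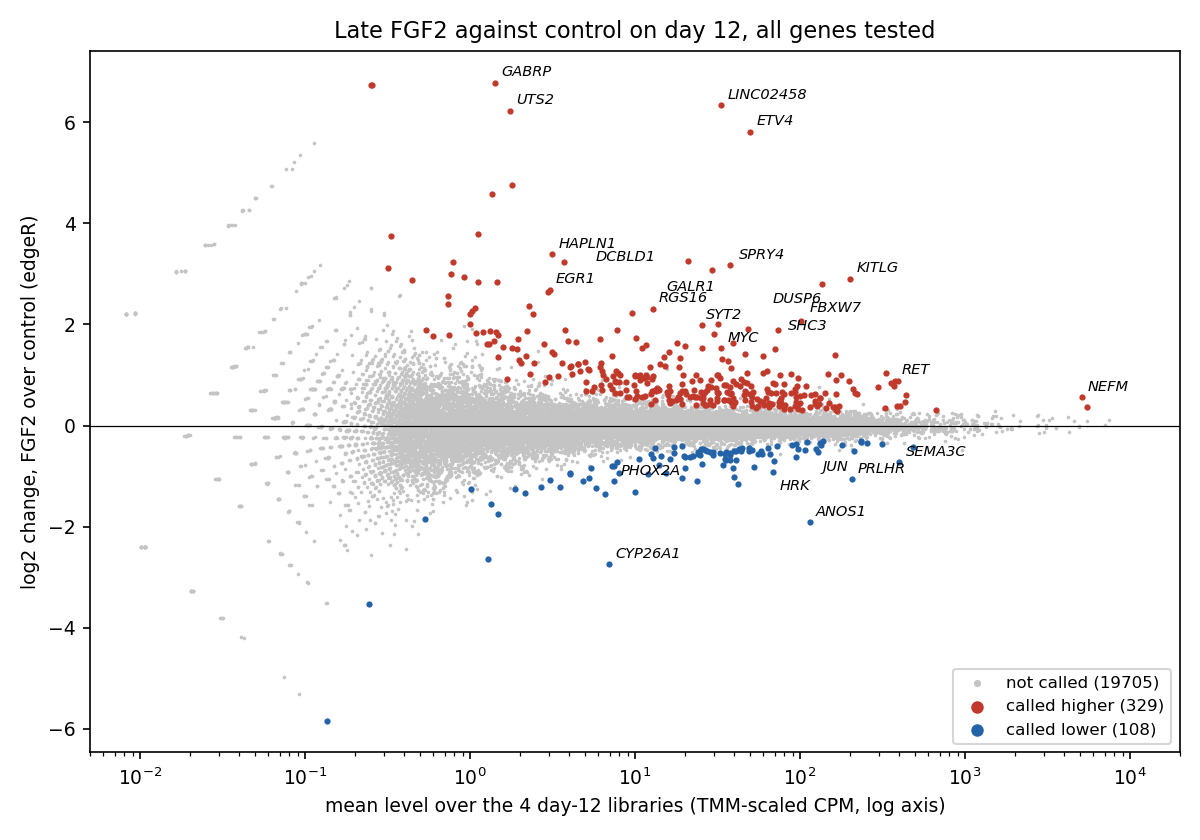
Log2 change of late FGF2 over control (vertical axis) against the mean level in the 4 day-12 libraries (CPM, log axis), 1 point per gene tested. Red points are the 329 genes called higher and blue points the 108 called lower. The ETS factor ETV4 and the long noncoding RNA LINC02458 stand highest among genes at appreciable level, and CYP26A1 and ANOS1 lowest.

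All 3 ETS factors of the PEA3 group, ERK-controlled activators of transcription, rose with late FGF2. ETV4 was at 2.31 and 1.15 CPM in the controls and 96.7 and 99.6 CPM with FGF2 (log2 change 5.81 ± 0.17 SE, adjusted p = 4.01e-11). The 4 day-6 libraries were at 3.05 to 3.22 CPM, so of the 8 libraries only those with late FGF2 were high. ETV5 was at 40.1 and 41.0 CPM in the controls and 84.2 and 87.7 CPM with FGF2 (log2 change 1.08 ± 0.08 SE, adjusted p = 1.24e-06). ETV1 was at 44.2 and 33.8 CPM in the controls and 83.4 and 76.9 CPM with FGF2 (log2 change 1.04 ± 0.12 SE, adjusted p = 8.99e-05). For both genes the lower FGF2 library stood above the higher control by a wide margin. ETV1 had been at 107 to 130 CPM on day 6, above both day-12 groups.

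Inhibitors that act on receptors and RAS moved in the same direction. Of 8 tested Sprouty, SPRED and SEF genes 6 rose, 0 fell, and the median log2 change was 0.77. SPRY4 was at 8.60 and 6.45 CPM in the controls and 68.1 and 68.0 CPM with FGF2 (log2 change 3.17 ± 0.16 SE, adjusted p = 9.61e-09). SPRY2 was at 13.3 and 13.3 CPM in the controls and 46.3 and 46.7 CPM with FGF2 (log2 change 1.81 ± 0.09 SE, adjusted p = 1.62e-08). Both pairs of replicates lay within a narrow band, and the groups were far apart. SPRED2, which keeps RAF from being activated by RAS, went from 59.6 and 56.0 to 102 and 101 CPM (log2 change 0.81 ± 0.11 SE, adjusted p = 0.000469). Smaller rises were those of SPRED1, SPRED3 and IL17RD, the SEF protein that holds back FGF receptor signalling, with log2 changes of 0.94, 0.55 and 0.55. The SPRED1 call was lost without the second day-12 control (adjusted p = 0.0897) and that of SPRED3 without the first (0.0526), while IL17RD lost it without either FGF2 library (0.0665 and 0.0641) or control replicate 2 (0.144). SPRY1 was low, at 1.22 and 1.07 CPM in the controls and 2.13 and 1.68 CPM with FGF2, and was not called (adjusted p = 0.369).

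Several phosphatases that act on MAP kinases rose too. Of 9 tested members 4 rose and 0 fell (median log2 change 0.59), and 1 was called lower when both day-6 FGF2 libraries were left out. DUSP6, the cytoplasmic ERK phosphatase, was at 36.3 and 32.3 CPM in the controls and 223 and 253 CPM with FGF2 (log2 change 2.79 ± 0.09 SE, adjusted p = 9.88e-11). DUSP4, a nuclear phosphatase of ERK, went from 226 and 218 to 368 and 381 CPM (log2 change 0.76 ± 0.07 SE, adjusted p = 1.95e-05). DUSP5, which is nuclear and selective for ERK, went from 1.58 and 1.62 to 6.48 and 5.44 CPM (log2 change 1.89 ± 0.22 SE, adjusted p = 9.08e-05). In each of these genes both FGF2 libraries were above both controls. DUSP10, which prefers the stress kinases JNK and p38, rose with a log2 change of 0.86 and lost its call without control replicate 1 (adjusted p = 0.0758). DUSP1 was at 60.4 and 57.8 CPM in the controls and 67.1 and 67.8 CPM with FGF2 and DUSP8, another phosphatase of stress kinases, at 184 and 178 CPM in the controls and 158 and 158 CPM with FGF2, and neither was called (adjusted p = 0.419 and 0.275). Another annotated gene covers 40.5% of the exon bases of DUSP6, and the library kit does not mark the strand of a read.

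**Figure D2:**
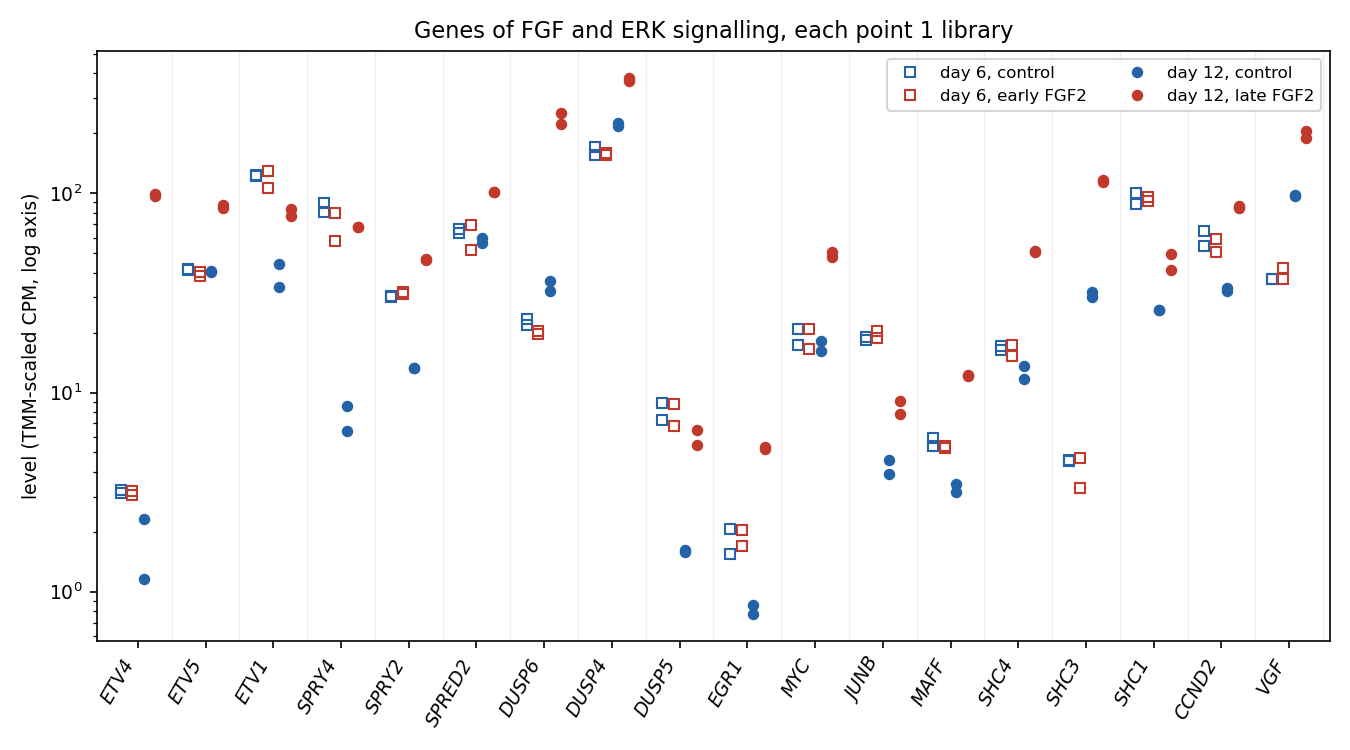
Levels of 18 called genes of FGF and ERK signalling (CPM, log axis), each point 1 library: squares day 6, circles day 12, blue controls, red FGF2. The 2 day-12 FGF2 points lie above the 2 day-12 control points for every gene shown, while the day-6 points of both groups lie near each other.

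Early response factors were mostly low on day 12, and 8 of 17 tested rose while 1 fell, or 2 fell without both day-6 FGF2 libraries (median log2 change 0.51). EGR1, a zinc finger factor, was at 0.770 and 0.854 CPM in the controls and 5.20 and 5.31 CPM with FGF2 (log2 change 2.69 ± 0.25 SE, adjusted p = 1.10e-05). MYC was at 16.1 and 18.1 CPM in the controls and 48.1 and 50.5 CPM with FGF2 (log2 change 1.53 ± 0.12 SE, adjusted p = 2.79e-06). JUNB was at 3.89 and 4.61 CPM in the controls and 9.10 and 7.84 CPM with FGF2 (log2 change 0.99 ± 0.15 SE, adjusted p = 0.00124). All 3 had groups that did not overlap. JUN, a factor known from the injury response of axons, went the other way, from 146 and 156 to 107 and 103 CPM (log2 change -0.53 ± 0.08 SE, adjusted p = 0.00128), and lost its call without FGF2 replicate 2 (adjusted p = 0.0541). FOS stayed low even with FGF2, at 0.649 and 0.384 CPM in the controls and 1.87 and 1.88 CPM with FGF2, and its adjusted p was 0.0492 here, 0.101 with DESeq2 and 0.136 to 0.448 without each day-12 library. FOSL2, NR4A1, ARC and IER2 were called higher, but each lost the call without 3 or more of the day-12 libraries. With 1 day-12 library left out, 3 to 5 members were called higher. NR4A2 (8.03 and 7.38 to 5.69 and 5.93 CPM) and NR4A3 (10.1 and 10.2 to 6.10 and 6.56 CPM), orphan nuclear receptors of activity-induced transcription, were not called (adjusted p = 0.273 and 0.0625).

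The 250 bases before the annotated start of 3 genes that rose are shown because they hold short motifs bound by factors at the end of the ERK pathway. Capitals mark a CArG box, the site of serum response factor, in EGR1, and the ETS core CCGGAA in SPRY2 and KITLG, searched on both strands. Sequences are from RefSeq on GRCh38.p14, written 5′ to 3′ on the gene's strand.
EGR1, chr5:138465229-138465478, plus strand: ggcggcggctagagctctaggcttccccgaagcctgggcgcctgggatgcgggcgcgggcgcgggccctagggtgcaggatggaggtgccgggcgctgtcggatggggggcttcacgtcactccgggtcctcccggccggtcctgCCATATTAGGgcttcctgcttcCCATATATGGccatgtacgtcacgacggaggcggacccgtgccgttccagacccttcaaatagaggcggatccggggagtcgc
SPRY2, chr13:80341127-80341376, minus strand: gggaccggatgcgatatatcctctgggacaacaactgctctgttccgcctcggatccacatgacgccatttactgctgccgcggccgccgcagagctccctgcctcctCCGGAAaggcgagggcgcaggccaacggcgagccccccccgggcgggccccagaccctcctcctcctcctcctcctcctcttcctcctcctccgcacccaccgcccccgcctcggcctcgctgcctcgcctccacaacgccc
KITLG, chr12:88580472-88580721, minus strand: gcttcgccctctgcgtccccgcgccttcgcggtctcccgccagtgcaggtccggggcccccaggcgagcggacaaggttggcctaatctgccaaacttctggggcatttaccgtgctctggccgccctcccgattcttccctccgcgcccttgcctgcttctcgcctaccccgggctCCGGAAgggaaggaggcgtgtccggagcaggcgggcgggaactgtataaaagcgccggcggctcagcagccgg
EGR1 has its CArG boxes at positions -105 and -83 counted from the start, and the ETS core starts at -142 in SPRY2 and -73 in KITLG. An ETS core was in 14.8% of all 27305 promoter windows of this length, in 23.3% of the 11346 of genes tested here and in 12.8% of the 243 of genes called higher. The CArG box was in 1.14%, 1% and 2.88% of them. The ETS core was also at -9 in ANOS1, a gene that fell. DUSP6 and SPRY4 held neither motif in this window, and ETV4 and ETV5 were not matched to a window. A match describes letters and says nothing of binding.

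Further ERK-responsive genes gave 4 rises and 0 falls among 14 tested (median log2 change 0.20), and 2 or 3 rises without each day-12 library. MAFF, a small MAF factor, was at 3.16 and 3.46 CPM in the controls and 12.1 and 12.3 CPM with FGF2 (log2 change 1.88 ± 0.15 SE, adjusted p = 2.73e-06). VGF, a secreted neuropeptide precursor, was at 97.8 and 96.7 CPM in the controls and 189.8 and 206 CPM with FGF2 (log2 change 1.03 ± 0.08 SE, adjusted p = 2.78e-06). Both genes had tight replicates. Among the D cyclins and CDK inhibitors, CCND2 went from 32.4 and 33.5 to 84.6 and 86.3 CPM (log2 change 1.38 ± 0.10 SE, adjusted p = 9.74e-07). Of the 38 genes of the cell cycle list 0 were called, where 2.17% of all genes tested were, and 13 stayed under 1 CPM. CCND1 rose from a low level, 1.09 and 0.726 to 3.15 and 2.83 CPM, and lost its call with limma voom (adjusted p = 0.052), without FGF2 replicate 1 (0.0566) and without control replicate 2 (0.155).

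Upstream in the pathway, calls in the fit of 8 libraries were 1 among receptors and coreceptors and 3 in the RAS to ERK cascade. FGFR1, an FGF receptor, was at 138 and 149 CPM in the controls and 149 and 153 CPM with FGF2 (log2 change 0.07 ± 0.08 SE, adjusted p = 0.838). FGFR2, FGFR3 and FGFR4 were below 2 CPM in each day-12 library and were not called. The cells' own FGF2 gene was at 4.78 and 6.27 CPM in the controls and 4.72 and 6.00 CPM with FGF2 (adjusted p = 0.980). Of 19 tested receptors and coreceptors 0 rose and 1 fell. That gene was ANOS1, which encodes anosmin, a matrix protein that binds heparan sulfate and modulates FGFR1: it went from 158 and 205 to 44.0 and 52.4 CPM (log2 change -1.91 ± 0.14 SE, adjusted p = 9.12e-07). Of 33 genes of the RAS to ERK cascade 3 were called higher, where 1.63% of all genes tested were. Without both day-6 FGF2 libraries 4 were higher and 2 lower. The 3 called in the fit of 8 libraries were adaptors of the SHC family that couple receptor tyrosine kinases to RAS. SHC3, the neuronal member, was at 32.0 and 30.1 CPM in the controls and 116 and 114 CPM with FGF2 (log2 change 1.89 ± 0.10 SE, adjusted p = 3.00e-08). SHC4 went from 13.7 and 11.7 to 51.6 and 50.8 CPM and SHC1 from 25.9 and 26.0 to 49.5 and 41.2 CPM (log2 changes 2.02 and 0.80). The other SHC gene, SHC2, was at 154 and 153 CPM in the controls and 154 and 143 CPM with FGF2 (adjusted p = 0.939). Of 23 genes of the PI3K, AKT and mTOR branch 0 were called, where 2.17% of all genes tested were. Without both day-6 FGF2 libraries that branch had 1 gene higher and 2 lower.

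Genes for other growth factors and their receptors followed. KITLG, the ligand of the KIT receptor, was at 50.1 and 44.7 CPM in the controls and 337 and 373 CPM with FGF2 (log2 change 2.90 ± 0.09 SE, adjusted p = 7.52e-11), and on day 6 it had been at 1.44 to 2.02 CPM. RET, the receptor of the GDNF family, was at 258 and 269.9 CPM in the controls and 481 and 497 CPM with FGF2 (log2 change 0.89 ± 0.07 SE, adjusted p = 3.33e-06). Both late FGF2 libraries were high for these genes and the groups did not overlap. KIT itself went from 6.85 and 7.08 to 4.08 and 3.69 CPM (log2 change -0.84 ± 0.16 SE, adjusted p = 0.00770) and lost its call without FGF2 replicate 2 (adjusted p = 0.139) or either control (0.0577 and 0.0832). PTN, a heparin-binding neurite growth factor, went from 62.7 and 61.9 to 98.0 and 79.6 CPM and NTF3, a neurotrophin, from 0.162 and 0.299 to 0.824 and 0.890 CPM, and both lost their calls without 3 or more libraries. Of 26 growth factor genes 3 rose and of 26 other receptor tyrosine kinases 1 rose and 1 fell, or 4 and 4 without both day-6 FGF2 libraries.

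Several genes of retinoic acid handling moved. CYP26A1, which oxidises and clears retinoic acid, was at 11.1 and 13.2 CPM in the controls and 1.46 and 2.14 CPM with FGF2 (log2 change -2.73 ± 0.24 SE, adjusted p = 5.50e-06). Its day-6 levels were 0.589 to 1.12 CPM in all 4 libraries, so the day-12 controls were the group that stood high. RXRG, a retinoid X receptor, was at 27.5 and 31.6 CPM in the controls and 49.2 and 55.3 CPM with FGF2 (log2 change 0.82 ± 0.11 SE, adjusted p = 0.000416). CRABP1, which binds retinoic acid in the cytoplasm, went from 156 and 179 to 241 and 281 CPM and RDH10, which makes its precursor retinal, from 6.57 and 9.09 to 14.3 and 15.6 CPM (log2 changes 0.64 and 0.94). CRABP1 lost its call without FGF2 replicate 2 (adjusted p = 0.214), control replicate 1 (0.207) or control replicate 2 (0.0632), and RDH10 without FGF2 replicate 2 (0.0802) or control replicate 1 (0.109). In all, 3 of 15 tested members rose and 1 fell, or 4 and 2 without both day-6 FGF2 libraries, with a median of 0.05. Other genes cover 25.2% of the exon bases of CYP26A1 and 47.2% of those of CRABP1.

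**Figure D3:**
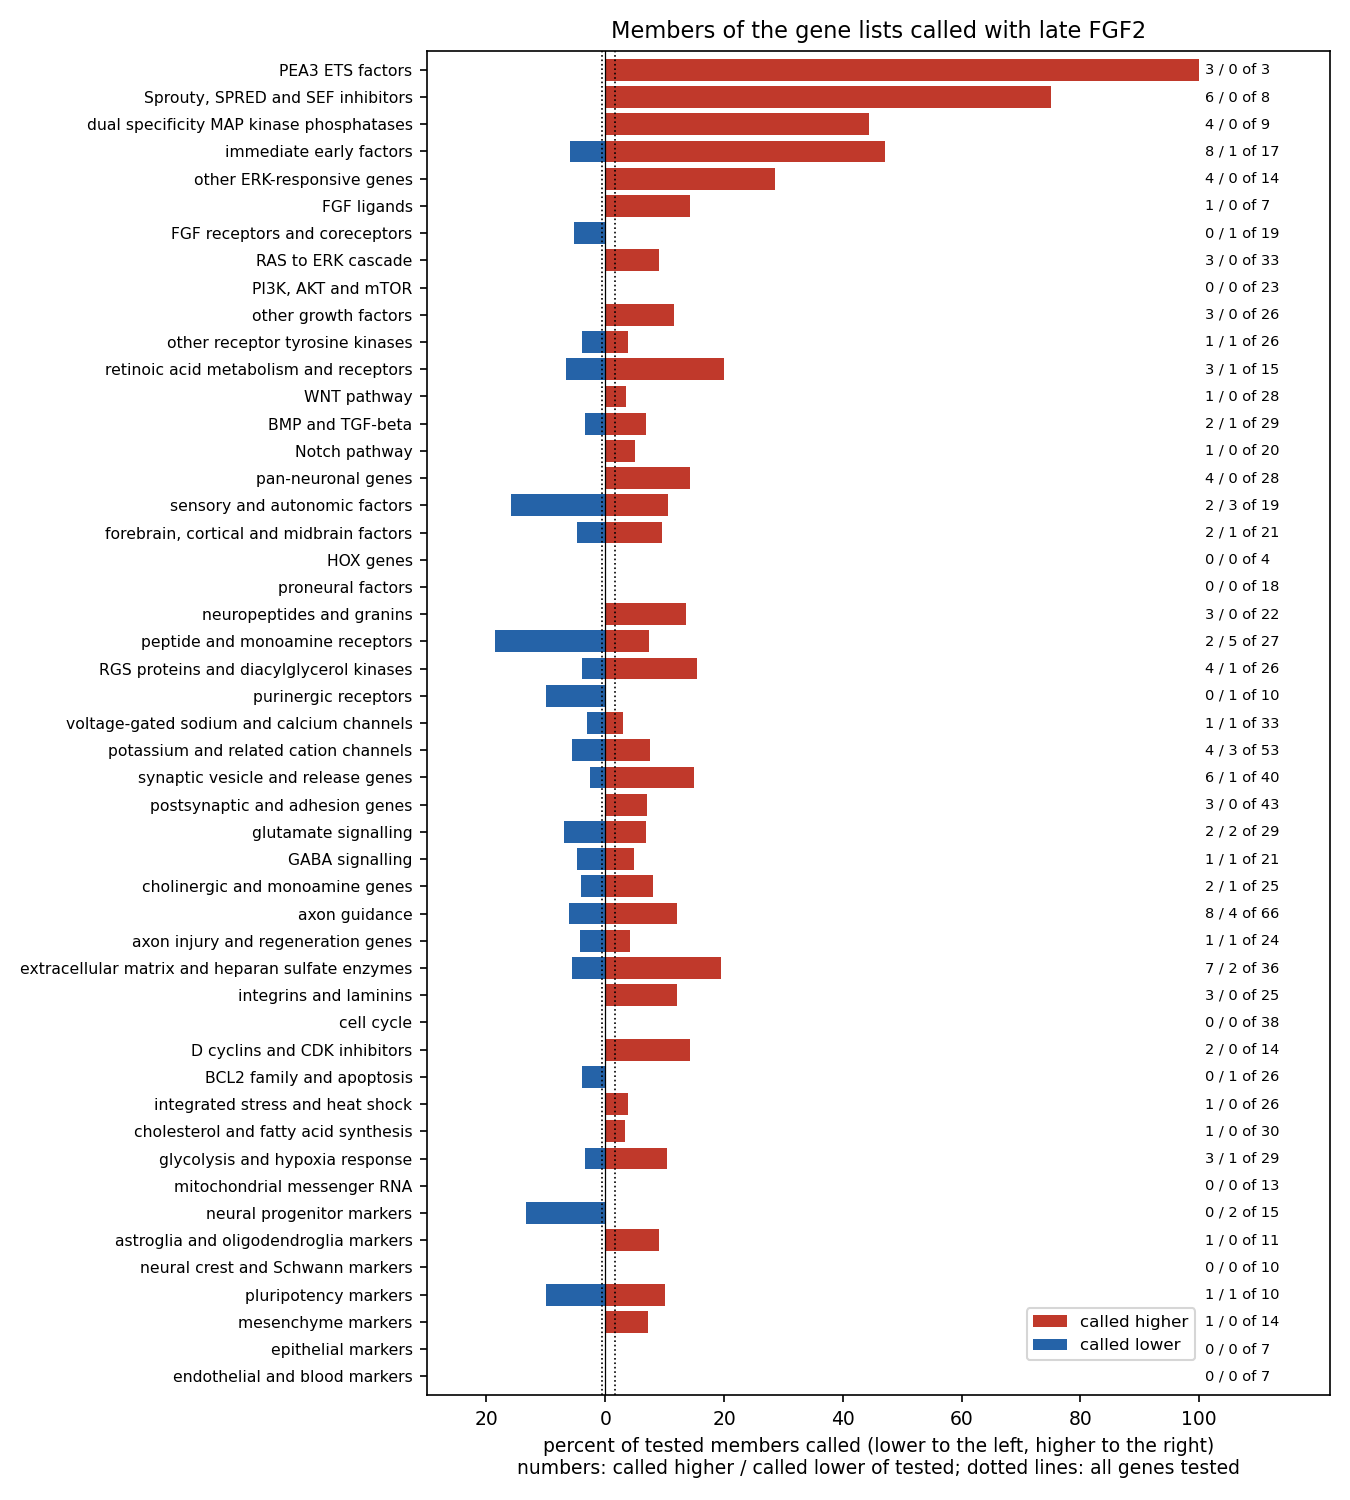
Percent of the tested members of each gene list called higher (red, to the right) or lower (blue, to the left) with late FGF2. Numbers give called higher, called lower and tested, and dotted lines mark the shares over all genes, 1.63% and 0.536%. The lists of ERK output at the top have the longest bars.

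Genes for peptide signalling changed in both directions. Of 27 tested peptide and monoamine receptors 2 rose and 5 fell, or 4 and 6 without both day-6 FGF2 libraries. GALR1, a galanin receptor, was at 7.26 and 5.17 CPM in the controls and 53.0 and 52.4 CPM with FGF2 (log2 change 3.08 ± 0.16 SE, adjusted p = 1.95e-08). GPR83, a receptor of brain peptides outside the list, was at 11.3 and 8.92 CPM in the controls and 42.4 and 38.5 CPM with FGF2 (log2 change 2.00 ± 0.14 SE, adjusted p = 5.37e-07). PRLHR, the receptor of prolactin-releasing peptide, went the other way, from 252 and 305 to 121 and 145 CPM (log2 change -1.07 ± 0.11 SE, adjusted p = 2.08e-05). The somatostatin receptor SSTR2 fell from 31.3 and 32.6 to 17.3 and 20.3 CPM (log2 change -0.76 ± 0.10 SE, adjusted p = 0.000333) while somatostatin itself, SST, rose from 32.2 and 30.6 to 70.9 and 58.0 CPM (log2 change 1.03 ± 0.12 SE, adjusted p = 9.16e-05). SSTR1, HTR7 and TACR1 were called lower and HTR3B higher, and each lost the call without 2 or more day-12 libraries. SCG2, a granin of dense-core vesicles, rose from 62.8 and 57.9 to 95.5 and 96.2 CPM (log2 change 0.67). With SST and VGF this made 3 of 22 neuropeptide and granin genes higher and 0 lower, or 3 and 2 without both day-6 FGF2 libraries.

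Downstream of such receptors, RGS proteins switch off G protein signals. RGS16 was at 5.27 and 3.24 CPM in the controls and 21.7 and 20.9 CPM with FGF2 (log2 change 2.31 ± 0.17 SE, adjusted p = 9.63e-07). RGS4 was at 212 and 227 CPM in the controls and 415 and 481 CPM with FGF2 (log2 change 1.03 ± 0.09 SE, adjusted p = 6.69e-06). RGS2 went from 21.2 and 19.0 to 34.3 and 41.1 CPM (log2 change 0.91). These 3 RGS genes had groups that did not overlap, and of the list of 26 RGS and diacylglycerol kinase genes 4 rose and 1 fell, or 6 and 2 without both day-6 FGF2 libraries. Among 10 purinergic receptors P2RY1 alone was called, and it fell from 14.03 and 14.3 to 5.35 and 6.07 CPM (log2 change -1.30 ± 0.17 SE, adjusted p = 0.000429).

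Ion channels and synaptic genes followed no single direction. KCNIP4, a subunit of A-type potassium channels, was at 23.1 and 19.3 CPM in the controls and 47.8 and 55.5 CPM with FGF2 (log2 change 1.28 ± 0.12 SE, adjusted p = 8.12e-06). Of 53 genes for potassium and related cation channels 4 rose and 3 fell, where 1.63% and 0.536% of all genes tested did. Without both day-6 FGF2 libraries 6 rose and 8 fell, where 3.72% and 2.19% of all genes tested did. The 3 called lower in the fit of 8 libraries, KCND3, KCNH1 and KCNK12, lost their calls without 3 or more of the day-12 libraries. Of 40 synaptic vesicle and release genes 6 rose and 1 fell, or 8 and 4 without both day-6 FGF2 libraries. Without each day-12 library in turn 5 rose and 0 fell. SYT2, a fast calcium sensor of release, was at 19.6 and 21.0 CPM in the controls and 73.6 and 78.2 CPM with FGF2 (log2 change 1.90 ± 0.10 SE, adjusted p = 1.95e-08). RIMS1, an active zone scaffold, was at 85.8 and 80.7 CPM in the controls and 129.5 and 124 CPM with FGF2 (log2 change 0.61 ± 0.09 SE, adjusted p = 0.000804). DOC2B, UNC13C and SV2B rose with log2 changes of 0.81, 1.71 and 1.21. These 5 genes kept their calls in every other setting, but another gene covers 27.2% of the exon bases of SYT2. NRXN3, a presynaptic adhesion protein, was at 12.8 and 13.4 CPM in the controls and 35.6 and 39.98 CPM with FGF2 (log2 change 1.53 ± 0.13 SE, adjusted p = 6.01e-06), against 0.129 to 0.407 CPM on day 6. GRIK2, a kainate receptor subunit, rose from 24.2 and 25.5 to 40.1 and 37.4 CPM, while the NMDA receptor subunit GRIN2A was called lower and lost the call with DESeq2 (adjusted p = 0.172), without either FGF2 library (0.172 and 0.111) and without control replicate 2 (0.281).

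Cytoskeletal genes of the axon were high in both groups. NEFM, the medium neurofilament, was at 4088 and 4143 CPM in the controls and 5948 and 6155 CPM with FGF2 (log2 change 0.56 ± 0.06 SE, adjusted p = 9.59e-05), a rise of 1.47-fold. An antisense gene covers 38.9% of its exon bases. NEFL went from 4720 and 4904 to 6124 and 6227 CPM, and it lost its call without any 1 of the 4 day-12 libraries (adjusted p = 0.0736 to 0.127). Of 28 pan-neuronal genes 4 rose and 0 fell, or 6 and 4 without both day-6 FGF2 libraries, and with 1 day-12 library left out 1 was called higher.

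**Figure D4:**
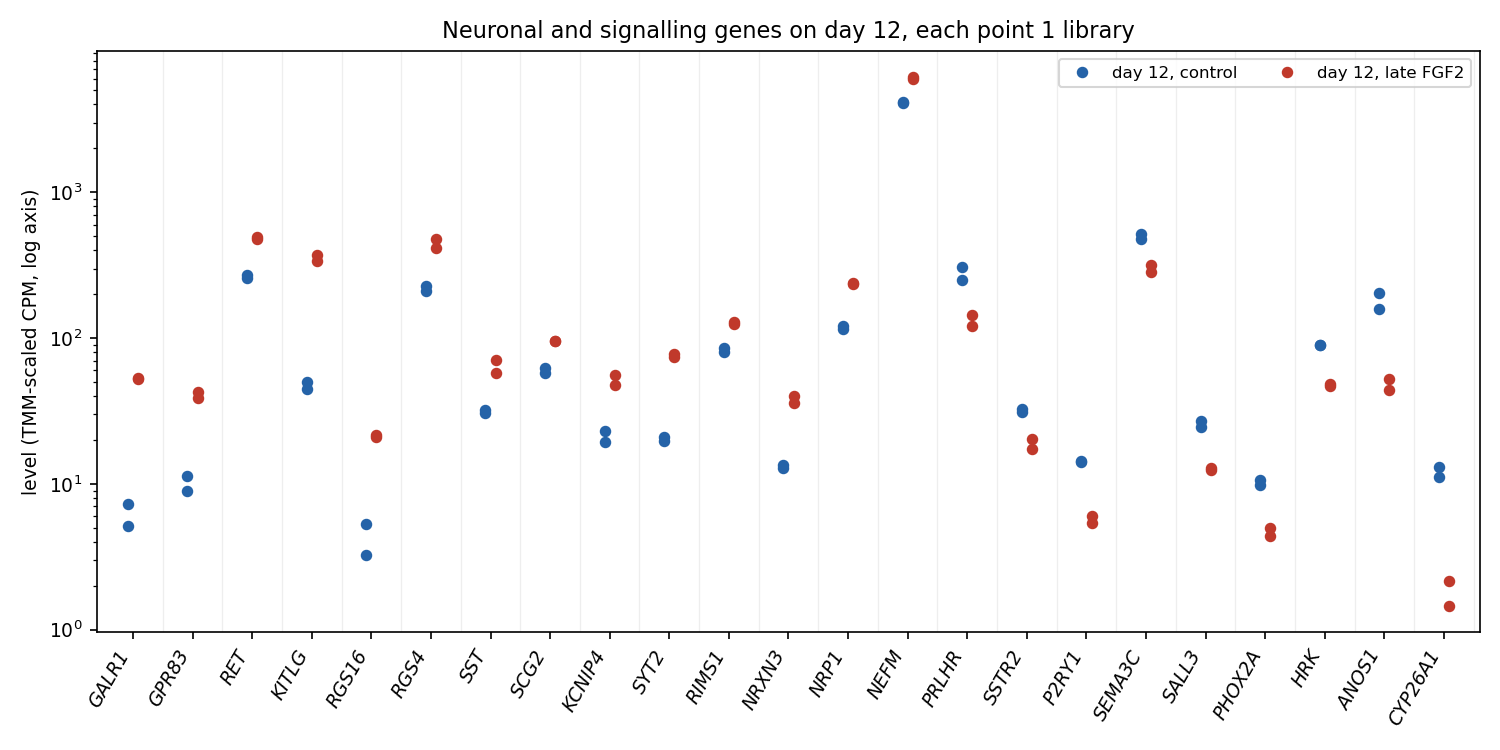
Levels of 23 genes of neuronal signalling, synapse, guidance and identity on day 12 (CPM, log axis), each point 1 library, blue for controls and red for late FGF2. From GALR1 to NEFM the FGF2 points lie above the controls, and from PRLHR to CYP26A1 below.

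Axon guidance genes were called in both directions, 8 higher and 4 lower of 66, or 11 and 11 without both day-6 FGF2 libraries. NRP1, a receptor of class 3 semaphorins, was at 120.1 and 116 CPM in the controls and 238 and 236 CPM with FGF2 (log2 change 1.01 ± 0.09 SE, adjusted p = 4.97e-06). SEMA3C, one of its ligands, was at 479 and 515 CPM in the controls and 284 and 318 CPM with FGF2 (log2 change -0.72 ± 0.09 SE, adjusted p = 0.000173). Receptor and ligand moved in opposite directions, with no overlap between groups. SLIT2, a repellent read by ROBO receptors, rose from 51.0 and 52.4 to 77.1 and 84.2 CPM (log2 change 0.64 ± 0.09 SE, adjusted p = 0.000559). SEMA3E and SEMA3D, other class 3 semaphorins, were called higher, with log2 changes of 0.66 and 0.54. SEMA3E lost its call without control replicate 2 (adjusted p = 0.0531), and SEMA3D without FGF2 replicate 1 (0.0774) or control replicate 2 (0.130). Without 1 day-12 library 2 to 6 members were called higher and 1 lower.

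Of 36 matrix genes 7 rose and 2 fell, or 9 and 4 without both day-6 FGF2 libraries, with a median log2 change of 0.07. Of all genes called, 75.3% were higher. HAPLN1, which links hyaluronan to proteoglycans, was at 0.446 and 0.640 CPM in the controls and 5.95 and 5.50 CPM with FGF2 (log2 change 3.39 ± 0.24 SE, adjusted p = 8.17e-07). VCAN, the proteoglycan versican, was at 120.5 and 109 CPM in the controls and 214 and 216 CPM with FGF2 (log2 change 0.91 ± 0.13 SE, adjusted p = 0.00110). CHST15, a sulfotransferase of chondroitin chains, was at 9.29 and 10.8 CPM in the controls and 29.4 and 30.6 CPM with FGF2 (log2 change 1.57 ± 0.12 SE, adjusted p = 1.76e-06). For HAPLN1 and VCAN the day-6 libraries were at 13.4 to 16.7 and 157 to 240 CPM, so the day-12 controls were the low group. SULF1, which removes sulfate from heparan sulfate and so alters FGF binding, fell from 50.2 and 51.0 to 31.9 and 31.5 CPM (log2 change -0.68 ± 0.09 SE, adjusted p = 0.000562). ITGB1, a common integrin chain, rose from 134 and 127 to 198 and 205 CPM (log2 change 0.62 ± 0.07 SE, adjusted p = 0.000152). TNC, SPOCK1 and CHST9 were called and lost the call without 2 or more day-12 libraries. With 1 day-12 library left out 3 to 5 members of the list were called higher and 1 to 2 lower.

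Transcription factors of neuronal identity changed at low or moderate levels. PHOX2A, an autonomic neuron factor, was at 10.6 and 9.77 CPM in the controls and 4.42 and 5.01 CPM with FGF2 (log2 change -1.11 ± 0.17 SE, adjusted p = 0.00167). DRGX, a sensory neuron factor, was at 15.7 and 15.5 CPM in the controls and 33.6 and 28.6 CPM with FGF2 (log2 change 1.00 ± 0.11 SE, adjusted p = 8.99e-05). PAX5, a factor of the midbrain and hindbrain border, went from 5.55 and 3.76 to 13.7 and 17.3 CPM (log2 change 1.74). It had been at 35.0 to 49.5 CPM on day 6, above both day-12 groups. These 3 genes kept their calls in every other setting, while EYA1 and EOMES, called lower, lost them without 3 of the 4 day-12 libraries. Of 19 sensory and autonomic factors 2 rose and 3 fell, and the 2 were DRGX and ETV1, the PEA3 factor given above. That list had 3 higher and 4 lower without both day-6 FGF2 libraries, and 1 to 2 lower with 1 day-12 library left out. Of 21 forebrain, cortical and midbrain factors 2 rose and 1 fell, or 2 and 4 without both day-6 FGF2 libraries. Of 18 proneural factors 0 were called, and 1 was higher and 3 lower without both day-6 FGF2 libraries. Of 15 neural progenitor markers 0 rose and 2 fell, with a median log2 change of 0.25, and 4 rose and 2 fell without both day-6 FGF2 libraries. SOX2, a factor of stem and progenitor cells, fell from 67.4 and 65.6 to 44.0 and 46.2 CPM (log2 change -0.56 ± 0.08 SE, adjusted p = 0.000759), and SOX1, its relative, from 1.86 and 2.56 to 0.412 and 0.297 CPM, a call lost without 2 of the day-12 libraries. The most abundant marker of the list, NES, the intermediate filament nestin, was at 457 and 496 CPM in the controls and 535 and 601 CPM with FGF2 and was not called (adjusted p = 0.122). ID4, an inhibitor of proneural factors, rose from 150.3 and 166 to 238 and 283 CPM (log2 change 0.72 ± 0.10 SE, adjusted p = 0.000510).

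Other called genes had diverse roles. FBXW7, the ubiquitin ligase subunit whose known substrates include MYC and JUN, was at 36.6 and 40.9 CPM in the controls and 162 and 165 CPM with FGF2 (log2 change 2.08 ± 0.10 SE, adjusted p = 5.46e-09). HRK, a pro-death member of the BCL2 family, was at 90.1 and 89.5 CPM in the controls and 46.8 and 48.6 CPM with FGF2 (log2 change -0.91 ± 0.09 SE, adjusted p = 1.45e-05), and among 26 BCL2 family and apoptosis genes it was the 1 called, while 3 rose and 1 fell without both day-6 FGF2 libraries. ENC1, an actin-binding protein of neurons, rose from 289 and 261 to 476 and 464 CPM (log2 change 0.77). For each of these genes the groups were apart in all 4 libraries. LHFP was at 92.3 and 86.3 CPM in the controls and 236 and 232 CPM with FGF2 and VAT1L at 284 and 266 CPM in the controls and 504 and 515 CPM with FGF2, with log2 changes of 1.39 and 0.89. CALN1, a calcium-binding protein of neurons, went from 50.4 and 55.6 to 23.9 and 28.7 CPM (log2 change -1.01), and PDZRN3, a ubiquitin ligase, from 52.5 and 64.2 to 24.9 and 27.3 CPM (-1.16).

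Sterol and glycolysis genes moved by small amounts, and how many were called turned on which libraries shared the fit. Of 30 cholesterol and fatty acid synthesis genes 1 was called in the fit of 8 libraries, where 2.17% of all genes tested were. Without both day-6 FGF2 libraries 21 rose and 0 fell, where 3.72% and 2.19% of all genes tested did. The list summed to 11201 and 10710 CPM in the controls and to 12419 and 12793 CPM with FGF2, with a median log2 change of 0.22. STARD4, a cholesterol carrier, was called in both, from 92.5 and 92.6 to 137 and 145 CPM (log2 change 0.61 ± 0.08 SE, adjusted p = 0.000607). Of 29 glycolysis and hypoxia genes 3 rose and 1 fell in the fit of 8 libraries, and 14 rose and 2 fell without both day-6 FGF2 libraries (median log2 change 0.25). PFKP, a phosphofructokinase, went from 17.3 and 13.6 to 29.5 and 27.5 CPM and lost its call without control replicate 2 (adjusted p = 0.0566). LDHA and ENO1, which act late in glycolysis, lost theirs without that library (0.324 and 0.265) or FGF2 replicate 1 (0.304 and 0.245), and LDHA also with DESeq2 (0.144). The 2 controls differed in this list by a median log2 value of -0.21 (replicate 2 over replicate 1), nearly as much as the groups did.

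Around DUSP6 on chromosome 12, neighbours rose as well. Of the 17 tested genes whose start lay within 1500 kb of the DUSP6 start (GRCh38, GENCODE 29), 5 were called. All of them rose, over a span of 1128 kb, where 2.17% of all genes tested were called in either direction. These were KITLG at -772 kb, LINC02458 at -334 kb, DUSP6, LINC00936 at 356 kb and ATP2B1 at 356 kb. The window was chosen after the values were seen, and DUSP6, its centre, is itself counted. LINC02458, a long noncoding RNA, was at 1.14 and 0.469 CPM in the controls and 61.5 and 69.8 CPM with FGF2 (log2 change 6.33 ± 0.21 SE, adjusted p = 2.98e-10). ATP2B1, a calcium pump of the plasma membrane, was at 257 and 249.9 CPM in the controls and 423 and 491 CPM with FGF2 (log2 change 0.85 ± 0.10 SE, adjusted p = 9.59e-05). LINC00936 starts within the ATP2B1 gene on the other strand, and the library kit does not mark the strand of a read. It was at 22.6 and 25.5 CPM in the controls and 50.0 and 55.2 CPM with FGF2 (log2 change 1.13 ± 0.12 SE, adjusted p = 5.02e-05). These groups did not overlap, and genes in between, such as POC1B (3.69 and 3.67 to 4.53 and 4.25 CPM), and beyond, such as CEP290 (65.5 and 58.7 to 59.5 and 55.4 CPM), were not called.

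**Figure D5:**
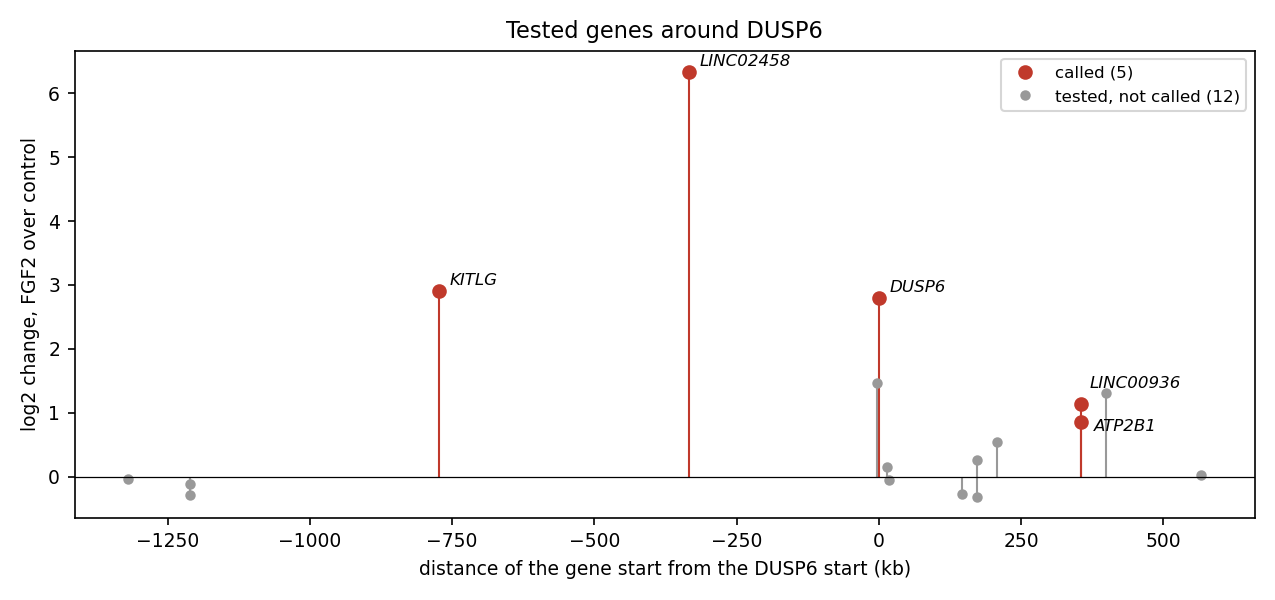
Log2 change of late FGF2 over control for the 17 tested genes within 1500 kb of the DUSP6 start, placed by the distance of their start (kb). Red marks the 5 called genes, all above 0, and grey the 12 that were not called.

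Late and early FGF2 were set against each other in the same fit. The difference between the late and the early effect was called for 147 genes (0.73%). That count rested on the libraries in the fit: it was 78 to 100 without each day-12 library, 81 and 86 without each day-6 control, 1345 without day-6 FGF2 replicate 1 and 353 without day-6 FGF2 replicate 2. ETV4 differed by a log2 value of 5.83 (adjusted p = 2.78e-08), SPRY4 by 3.49 (2.16e-07) and DUSP6 by 2.96 (2.53e-08). With early FGF2 none of ETV4, SPRY4, DUSP6 and CYP26A1 was called (adjusted p = 0.927 to 0.991). Early FGF2 was given with doxycycline present, and late FGF2 after its withdrawal and to older cultures. Late FGF2 was given wholly in 3N, while the first 6 days of the day-12 cultures began with 2 days in E8. The media of the day-6 cultures are not given here, and the growth factors that each medium held were not compared. The time of FGF2 cannot be told apart from differences in doxycycline, age or medium. SPRY4 was at 80.9 and 89.4 CPM in the day-6 controls and 57.6 and 79.3 CPM with early FGF2, around the level that late FGF2 gave on day 12. CYP26A1 differed by -2.61 (adjusted p = 0.0112), with an early log2 change of -0.12. LINC02458 had 0 to 0.0741 CPM in the 4 day-6 libraries, too few to compare.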

How the data were processed

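Levels were taken from the deposited table of raw read counts per gene of the FGF2 set, made by the authors; the submitters' processing notes name Subread, featureCounts 1.5.0 and GRCh38. How reads were aligned, the annotation release and the strand setting are not given in the sources used here. Libraries were made with a TruSeq RNA v2 kit and sequenced as single-end reads, per the labels' protocols. The table has counts for 38116 genes, of which 17705 took their symbol from the deposited tables, 19784 from GENCODE 29 and 627 kept their identifier.

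The 8 libraries of the FGF2 set were fitted together in edgeR 4.0.16 (R 4.3.3) with filterByExpr, TMM scaling, 1 mean per group and the quasi-likelihood test, two-sided, with Benjamini-Hochberg adjustment over the 20142 genes tested. The fit left 4 residual degrees of freedom. Standard errors are the log2 change over the square root of the F statistic. CPM are counts per 1000000 reads after TMM scaling. Alternatives were library totals, RLE size factors, other count filters, DESeq2 1.42.0, limma 3.58.1 (voom), other sets of libraries, a replicate block and each library left out. The fit was tested on simulated data for this comparison over 19785 genes: 37 of 40 genes raised 2-fold and 32 of 40 lowered to 0.5 of their level were called, with 13 of 19585 unchanged genes. The simulation gave each gene the same spread in all 8 libraries, without the wider spread of the day-6 FGF2 pair. Changed genes were drawn only from those above a minimum mean count on day 12.

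For late FGF2 the authors deposited, per the file headers, log2 fold changes and p-values of DESeq2 and of limma. There, in the authors' deposited tables, 498 genes were higher and 336 lower at an adjusted p under 0.05 with DESeq2, and 739 and 567 with limma. Of the 414 called genes listed there, 340 with DESeq2 and 412 with limma were called in the same direction. The DESeq2 table gives no adjusted p for 6206 of its 17705 genes. Its log2 changes for the marker genes were smaller in size than those of the fit here. They were 0.984 for ETV4, 2.525 for SPRY4, 2.509 for DUSP6 and -1.341 for CYP26A1. The limma table gave 5.874, 3.179, 2.790 and -2.744 for the same genes.

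Gene lists and members were chosen with earlier results of these data known. Named by rule were the 4 marker genes, called genes with at least 5 CPM among the 15 largest log2 changes or the 12 largest CPM changes each way, and up to 6 called members of at least 1 CPM per list. FOS, ARC, IER2, NTF3, TACR1, LINC00936 and the genes of the closing observations were named after their values were seen, as were the uncalled genes given for comparison. A few results are not reported here. Whether replicate numbers pair samples was checked by the correlation of their deviations between groups, 0.004 to 0.098, so they were taken as numbers only.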

Additional observations from a re-analysis of the deposited data

Results flagged for a closer look

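The late effect of FGF2 differed from the early one for all 4 marker genes by the interaction term of the 8-library fit. Late minus early log2 values were 5.831 for ETV4, 3.489 for SPRY4, 2.964 for DUSP6 and -2.609 for CYP26A1. In all, 147 genes were called for this difference. Late and early cultures also differed in doxycycline and age, which cannot be told apart from the time of FGF2. The early groups include the 2 day-6 FGF2 libraries that differed most from each other, and their part in the count was not tested beyond leaving each of them out.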

How the results depend on the processing

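Counts of calls depended on which libraries shared the fit more than on the tool or scaling. Against 329 genes higher and 108 lower, the 4 day-12 libraries alone gave 812 and 526, and leaving out both day-6 FGF2 libraries gave 732 and 431. With each of the 8 libraries left out in turn, 152 to 768 genes were called higher, 23 to 420 lower and 78 to 1345 for late minus early. Leaving out day-6 FGF2 replicate 1 or 2 gave 758 and 768 higher. Where a group is left with 1 library, it is assumed to vary like the others. With no filter on low counts 195 genes were lower and 268 were called for late minus early. The replicate block called 435 genes higher, 163 lower and 206 for late minus early, and kept all 437 calls. DESeq2 gave 321 higher and 118 lower, limma voom 342 and 130. None of the 139 genes named by rule changed direction in a setting that was run, and 58 of them lost the call without day-12 control replicate 2, 45 without day-12 control replicate 1, and 47 and 50 without day-12 FGF2 replicates 1 and 2. In simulated data 26 of 40 genes raised 1.5-fold were called, and smaller changes were not simulated.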

Other observations

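Some genes that were nearly silent in the controls rose with late FGF2 but stayed at low levels, below the level needed to be named by rule. GABRP, a GABA receptor subunit found mainly outside the brain, had 1 count in both controls together and 161 with FGF2, or 0 and 0.0427 CPM in the controls and 2.66 and 2.97 CPM with FGF2 (adjusted p = 5.54e-05). UTS2, the peptide urotensin 2, had 2 counts in the controls and 198 with FGF2, or 0.0811 and 0 CPM in the controls and 3.41 and 3.53 CPM with FGF2 (adjusted p = 4.05e-05). Both calls held in every other setting, and another gene covers 48.5% of the exon bases of UTS2. Both FGF2 libraries carried the signal in each case. FGF1, a ligand of the same receptors as FGF2, had 2 counts in the controls and 35 with FGF2 (adjusted p = 0.0347), and lost its call without any 1 of the day-12 libraries (0.111 to 0.363).

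PVT1, a noncoding RNA gene next to MYC, rose with it, from 0.243 and 0.171 to 1.72 and 1.52 CPM (log2 change 2.93 ± 0.45 SE, adjusted p = 0.00159). The MYC and PVT1 groups did not overlap.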
